A study of Mus musculus with 108 samples.

Results

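Chromosome 11 gave more fragments to this enhancer screen than any other mouse chromosome, and the fragments on it are described here along its length. The members are all fragments on chromosome 11 in the 10 plasmid lists and the 95 lists from sorted cells, distal and promoter fragments together. They numbered 3752003 distinct fragments of 33956614 on the 19 autosomes. Of these, 3722482 were in a plasmid list and 145212 in a sorted list (of 1158207 autosomal ones). The chromosome was chosen by its number of fragments in these same lists, so its total and its excess over other chromosomes are given as a description, with no test. The question was whether that excess was spread evenly or sat in blocks.

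The screen used HM-1, a line of mouse embryonic stem cells that lacks a working Hprt gene. Pieces of open chromatin were cut out by the transposase Tn5 and cloned into a first vector, pDONR, and from there into the reporter vector pSKB, in front of the HSP68 minimal promoter and the gene for the Venus yellow fluorescent protein (YFP). Integration of 1 reporter cassette at Hprt repaired that gene and allowed selection. Each of the 5 stages supplied its own cloned material: untreated embryonic stem cells (ES), and, after in vitro differentiation, FLK1+ hemangioblasts (HB), hemogenic endothelium of the first (HE1) and second (HE2) step, and hematopoietic progenitors (HP). In replicates 1 to 4 the cells of a stage were separated by their YFP signal in 4 gates (Negative, Low, Medium, High). Replicate 5 had 3, with Medium/High as 1 gate. The 95 sorted lists hold each fragment once and carry no read number. The 5 pDONR and 5 pSKB lists, 1 per stage, and 3 lists from HM-1 cells without a reporter, a control for PCR products, give reads per fragment. All groups rest on 1 cell line and on the same cloned pools. Nothing in the labels says that the replicates were separate transfections, so p-values measure the spread between these samples.

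Enhancers and promoters are short stretches of open chromatin where transcription factors bind, and Tn5 cuts open DNA far more often than closed DNA. A chromosome with many genes therefore has many cut sites, but Tn5 also cuts closed DNA at a low rate, and such fragments fall between genes. Mouse chromosome 11 is gene-dense. It carries the alpha-globin genes, the HoxB cluster, Trp53 and several genes for blood cytokines and their signalling proteins. It held 4.96% of the sequenced autosomal bases and 7.89% of the protein-coding gene starts, or 13.8 starts per Mb against 8.41 on the other autosomes. Its G+C content was 43.8% against 41.8%.

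The sorted lists ranged from 504 to 131091 fragments (median 7918), and those of replicates 3 to 5 were shallow, so single lists place few fragments in a 1 Mb bin. The pDONR lists held 5660096 to 8832923 fragments and the pSKB lists 1302941 to 1952358. The HM-1 control lists held 1945 to 10895. In HE1, 2 pairs of libraries of different replicates shared most of their chromosome 11 fragments. HE1 Negative replicate 1 and HE1 Medium replicate 2 had 11028 in common (68.6% and 77.6% of the 2 lists), and HE1 Negative replicate 3 and HE1 Low replicate 4 had 767 (81.3% and 49.3%). In the other 142 such pairs, at most 38.6% of either list was shared. Leaving out these 4 libraries changed no call given below. YFP-positive cells of a stage and replicate are taken as the union of the Low, Medium, High and Medium/High lists, which gave 25 positive sets beside 25 Negative sets.

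Shown first, because they come from the 4 bins of chromosome 11 with the highest counts for their gene density, are the fragments that most libraries listed at the leading site of each bin (mm10, plus strand, 5′ to 3′, read from GRCm38.p6). Capitals mark a match to one of 5 motifs (TGANTCA for AP-1, CCGGAAG for ETS, AGATAA for the GATA factors, TGTGGTT for RUNX and CAGCTG as an E-box, on either strand).
Fragment between genes, chr11:18011050-18011195: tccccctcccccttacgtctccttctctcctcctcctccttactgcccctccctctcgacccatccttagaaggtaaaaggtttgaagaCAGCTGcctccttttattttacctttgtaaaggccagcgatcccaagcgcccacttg
Fragment in an intron of Tenm2, central bases chr11:36045806-36046105: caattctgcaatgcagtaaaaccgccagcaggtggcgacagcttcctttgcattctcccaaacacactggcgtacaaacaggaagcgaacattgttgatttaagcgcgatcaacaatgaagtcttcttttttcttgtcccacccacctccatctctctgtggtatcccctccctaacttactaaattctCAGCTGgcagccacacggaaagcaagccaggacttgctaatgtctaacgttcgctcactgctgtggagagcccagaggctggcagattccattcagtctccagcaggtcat
Fragment upstream of Rab1a, chr11:20200975-20201109: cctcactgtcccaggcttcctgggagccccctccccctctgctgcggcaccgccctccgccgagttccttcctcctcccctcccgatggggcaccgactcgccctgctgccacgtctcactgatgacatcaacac
Fragment upstream of Spred2, chr11:19924270-19924348: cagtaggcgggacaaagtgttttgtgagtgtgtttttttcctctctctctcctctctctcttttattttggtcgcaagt

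The first 2 lie far from any protein-coding start, the nearest being Etaa1 at 57364 bases and Wwc1 at 65356 bases. Tenm2 codes for a teneurin, a cell adhesion protein of neurons. The other 2 lie just before the first exons of Rab1a, a small GTPase of traffic from the endoplasmic reticulum to the Golgi, and Spred2, an inhibitor of Ras signalling. The fragment between genes was in 10 libraries, the Tenm2 fragment in 8, the Rab1a fragment in 29 and the Spred2 fragment in 12.

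The share of chromosome 11 was high before any cell was sorted. In the pDONR lists it made up 10.9% (ES), 11.1% (HB), 11.03% (HE1), 11.2% (HE2) and 11.6% (HP) of autosomal fragments. In the pSKB lists it was 10.96%, 11.3%, 11.2%, 11.5% and 11.7% in the same order. In the 95 sorted libraries it ran from 10.2% to 14.9% with a median of 12.6%, and in the 3 HM-1 control lists it was 10.4%, 11.3% and 11.5%. The chromosome therefore held over 10% of the fragments in every list, and it was the fullest autosome in 95 of 95 sorted libraries, 10 of 10 plasmid lists and 3 of 3 controls.

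**Figure D1:**
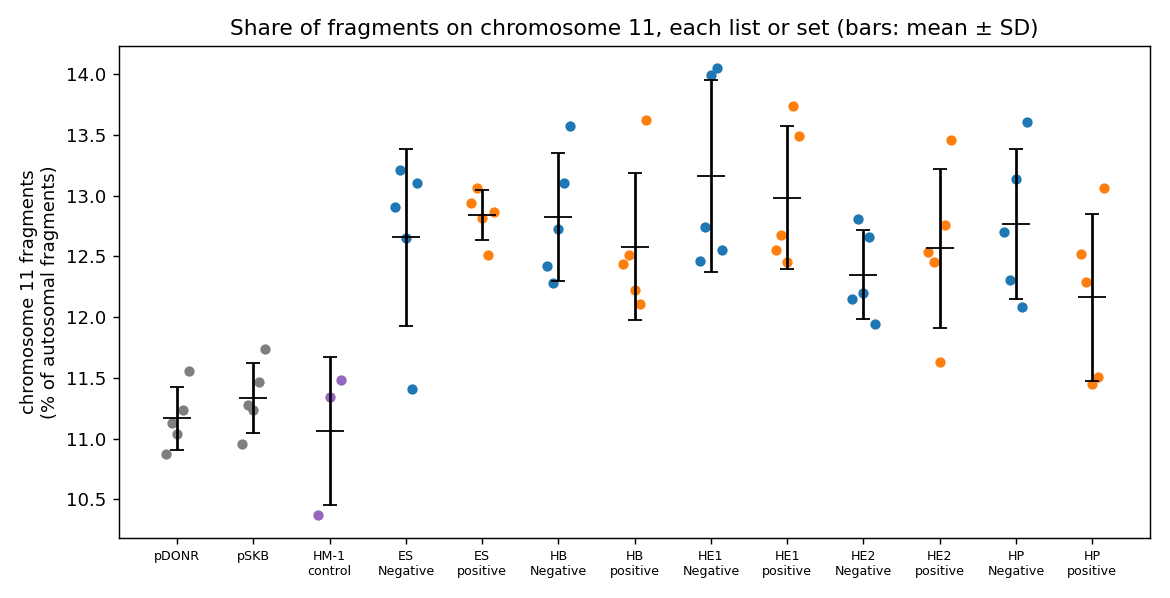
Share of autosomal fragments on chromosome 11 (percent, axis not from 0), 1 point per plasmid list, HM-1 control list, or Negative and YFP-positive set of a stage and replicate, with mean and SD as bars. The plasmid lists lie between 10.9% and 11.7%, and the Negative and positive sets of each stage overlap.

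YFP-positive and Negative cells held similar shares at each stage, and none of the 5 differences passed an exact two-sided permutation test over the splits of 5 sets against 5. In ES the positive sets of replicates 1 to 5 held 12.9%, 13.1%, 12.8%, 12.5% and 12.9%, and the Negative sets 12.9%, 13.2%, 12.7%, 11.4% and 13.1%. In HB the positive sets held 12.4%, 12.5%, 12.2%, 12.1% and 13.6%, and the Negative sets 12.4%, 12.3%, 12.7%, 13.1% and 13.6%. The groups overlapped in both stages. In HE1 the positive sets held 12.6%, 12.7%, 12.5%, 13.7% and 13.5%, and the Negative sets 12.5%, 12.7%, 13.99%, 14.1% and 12.6%. In HE2 they held 12.5%, 12.5%, 11.6%, 12.8% and 13.5% (positive), and 12.2%, 12.8%, 12.2%, 12.7% and 11.9% (Negative). In HP they held 12.5%, 12.3%, 11.4%, 11.5% and 13.1% (positive), and 12.7%, 12.3%, 13.1%, 12.1% and 13.6% (Negative). HP was the stage where the positive set was lower in all 5 replicates, with 12.2% ± 0.688 (SD, n = 5) against 12.8% ± 0.617. That difference of -0.603 percentage points had an exact permutation p of 0.175 and an adjusted p of 0.734. The smallest p that this exact test allows is 0.00794. In the other 4 stages the differences ran from -0.241 to 0.218 points, with adjusted exact permutation p-values of 0.734 to 0.786.

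Along the differentiation the positive sets of ES held 12.8% ± 0.205 and those of HB 12.6% ± 0.604 (SD, n = 5 for each stage). The share was 12.98% ± 0.588 for HE1, then 12.6% ± 0.654 for HE2, and 12.2% ± 0.688 for HP. The 4 steps between neighbouring stages changed it by -0.415 to 0.401 points, and each had an adjusted exact permutation p of 0.397. The share was lower in 5 of 5 same-numbered replicates from HE1 to HE2 and again from HE2 to HP, where the exact sign-flip permutation test over pairs gave p = 0.0625, the smallest it allows. From ES to HB the difference was -0.259 points, and -0.513 without replicate 5, where each ES set was above each HB set (exact permutation p = 0.0286, adjusted 0.114). From HB to HE1 it was 0.401, and 0.0953 without replicate 4. No step passed after adjustment. From pDONR to pSKB the share went from 11.2% ± 0.256 to 11.3% ± 0.289 (SD over 5 stages). It was higher in pSKB in 5 of 5 stages, by 0.169 points on average, with an exact permutation p of 0.349. With the stages as pairs the exact sign-flip p was 0.0625, the smallest that 5 pairs allow. Counted in reads instead of distinct fragments, the difference was 0.0122 points.

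To set the counts against gene density, each 1 Mb bin was compared with bins of the other autosomes that had the same number of protein-coding starts (0, 1 to 2, 3 to 5, 6 to 10, 11 to 20, over 20). Against this expectation the pooled positive sets had 1.89 times the fragments, the Negative sets 1.89, the pDONR lists 1.81, the pSKB lists 1.82 and the HM-1 controls 1.82. With both starts and G+C in the expectation these became 1.58, 1.58, 1.54, 1.54 and 1.56. For distal fragments of the positive sets the ratio from starts was 2.13 and for promoter fragments 1.79. The ratio of the chromosome was thus close in plasmid, control and sorted lists. By their account, the authors kept sorted fragments that were present in a plasmid list. A like ratio in plasmid and sorted lists is thus partly built in, and nothing is concluded from it.

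**Figure D2:**
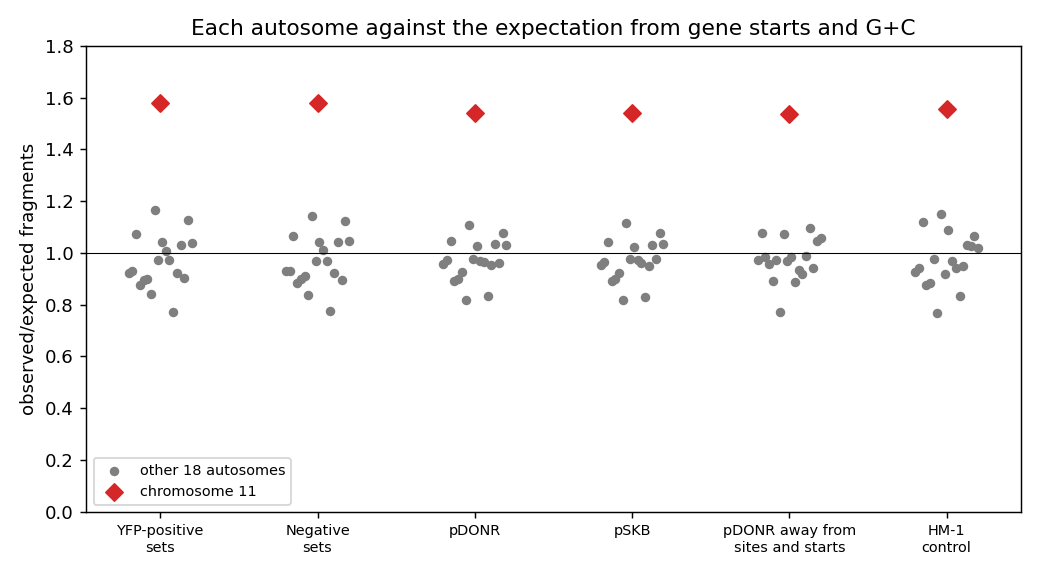
Observed over expected fragments (expectation from gene starts and G+C in the bins of the other autosomes) for each autosome, pooled over the lists named on the horizontal axis. The diamonds for chromosome 11 lie between 1.54 and 1.58, and the gray points for the other autosomes lie between 0.768 and 1.16.

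By gene starts alone, the other autosomes ran from 0.702 (chromosome 14) to 1.27 (chromosome 8) in the positive sets and from 0.758 (chromosome 14) to 1.23 (chromosome 8) in pDONR. Chromosomes 7, 17 and 19, with 14.2, 11.5 and 12.3 starts per bin the nearest in density to chromosome 11 with its 13.8, had ratios of 0.850, 1.01 and 1.08 in the positive sets and 0.832, 1.07 and 1.06 in pDONR. Chromosome 11 had the highest ratio in 92 of 95 sorted libraries, in 10 of 10 plasmid lists and in 3 of 3 controls. Chromosome 8 came next in 68 of the sorted libraries and in 10 plasmid lists.

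Taken over distal and promoter fragments together, the ratio was above 1 in each class of gene density in the sorted and plasmid lists. Bins without a protein-coding start held 47.1 fragments per Mb in the pooled positive sets, against 21.1 on other autosomes, and bins with over 20 starts held 3366 against 1850. From the emptiest to the fullest class the ratios in the positive sets were 2.24, 1.52, 1.45, 1.95, 2.11 and 1.82. In pDONR they were 1.65, 1.803, 1.41, 1.73, 1.96 and 1.82, and there none of the other 18 autosomes was as high in any class. In the positive sets 1 other autosome was as high in the class without starts and 1 in the class with 1 to 2. Promoter fragments alone were below the other autosomes in bins without a start (2 fragments, ratio 0.119) and with 1 to 2 starts (0.717). The HM-1 controls were at 0.980 in bins without a start, on 14 fragments.

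**Figure D3:**
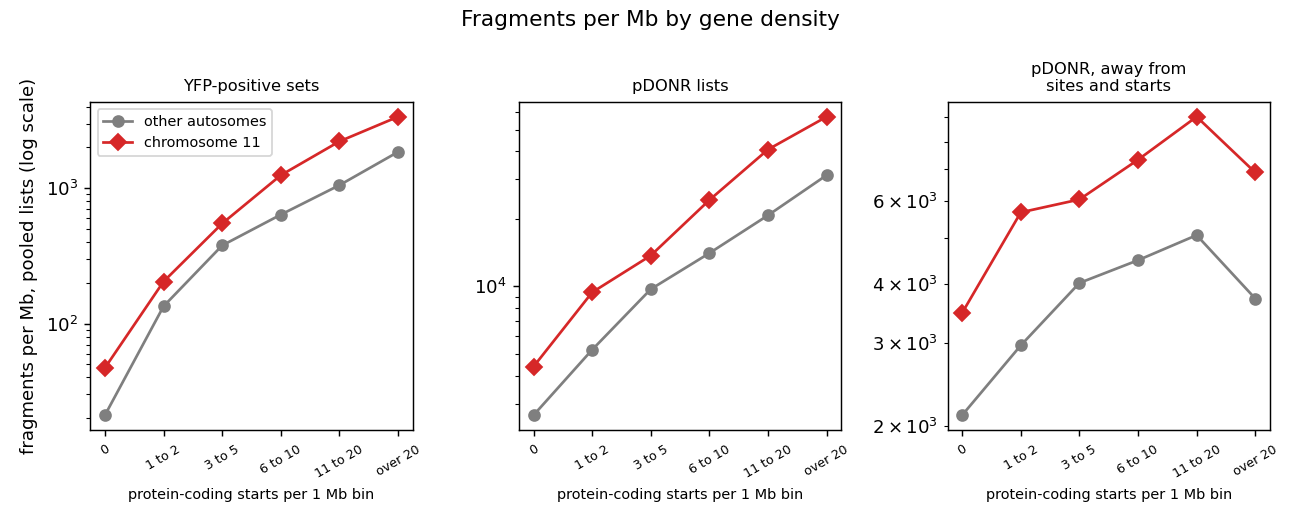
Fragments per Mb (log scale, a range of its own in each panel) by the number of protein-coding starts in a 1 Mb bin, for chromosome 11 and the other autosomes, in the pooled positive sets, the pDONR lists and the pDONR fragments away from sites and starts. The line of chromosome 11 is above that of the other autosomes in each class, by 1.41 to 2.24 times.

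Along the chromosome, fragments away from open chromatin sites were spread more evenly over bins than those of sorted cells under both expectations, and how even they were depended on the expectation. Sites were made by merging overlapping fragments of all sorted libraries. A plasmid fragment was counted as lying away from sites when it touched none and was over 10 kb from any annotated gene start. This drops the fragments clustered at sites and starts, while sorted fragments all lie in sites. A more even spread is thus partly fixed by the definition, and nothing is concluded from the contrast with sorted cells. For the fragments away from sites in pDONR, with starts and G+C in the expectation, 118 of the 119 bins of chromosome 11 lay above it. On the other autosomes 47.1% of 2284 bins did. From starts alone it was 111 bins, against 39.5%. The choice of the chromosome used these lists, so nothing is read from those counts. The expectation with G+C was added after seeing the data. Under it, the middle 50% of bins lay between 1.37 and 1.73 times the expectation, with a median of 1.54. The lowest bin, chr11:71000001-72000000, had 0.903 times the expectation, and the highest, chr11:106000001-107000000, had 2.32 times. In all, 114 bins were above in each of the 10 plasmid lists, and 1 run of 68 neighbouring bins reached from chr11:3000001 to 71000000 without a break.

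The SD of the log2 ratios over bins was 0.256 on chromosome 11 and ran from 0.286 to 2.19 on the other autosomes. The correlation between neighbouring bins was 0.04 over the chromosome, against -0.05 to 0.78 elsewhere, with a median of 0.30. The cause of this difference was not tested. By segments of 10 Mb (the first is 7 Mb long and the last 2 Mb), the ratio lay between 1.41 and 1.71 in all 13. The 10 bins with the largest excess held 18.4% of the excess, and 35 bins were needed for 50% of it. From starts alone the fragments away from sites were less even. The SD over bins was 0.494, against 0.529 to 2.57 on the other autosomes. The correlation between neighbouring bins was then 0.26, against 0.21 to 0.80 elsewhere, with a median of 0.46. The longest run above the expectation in the pooled pDONR lists was 48 bins, and the segments ran from 1.14 to 2.50. The 10 leading bins then held 23.9% of the excess, and 27 bins were needed for 50%.

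**Figure D4:**
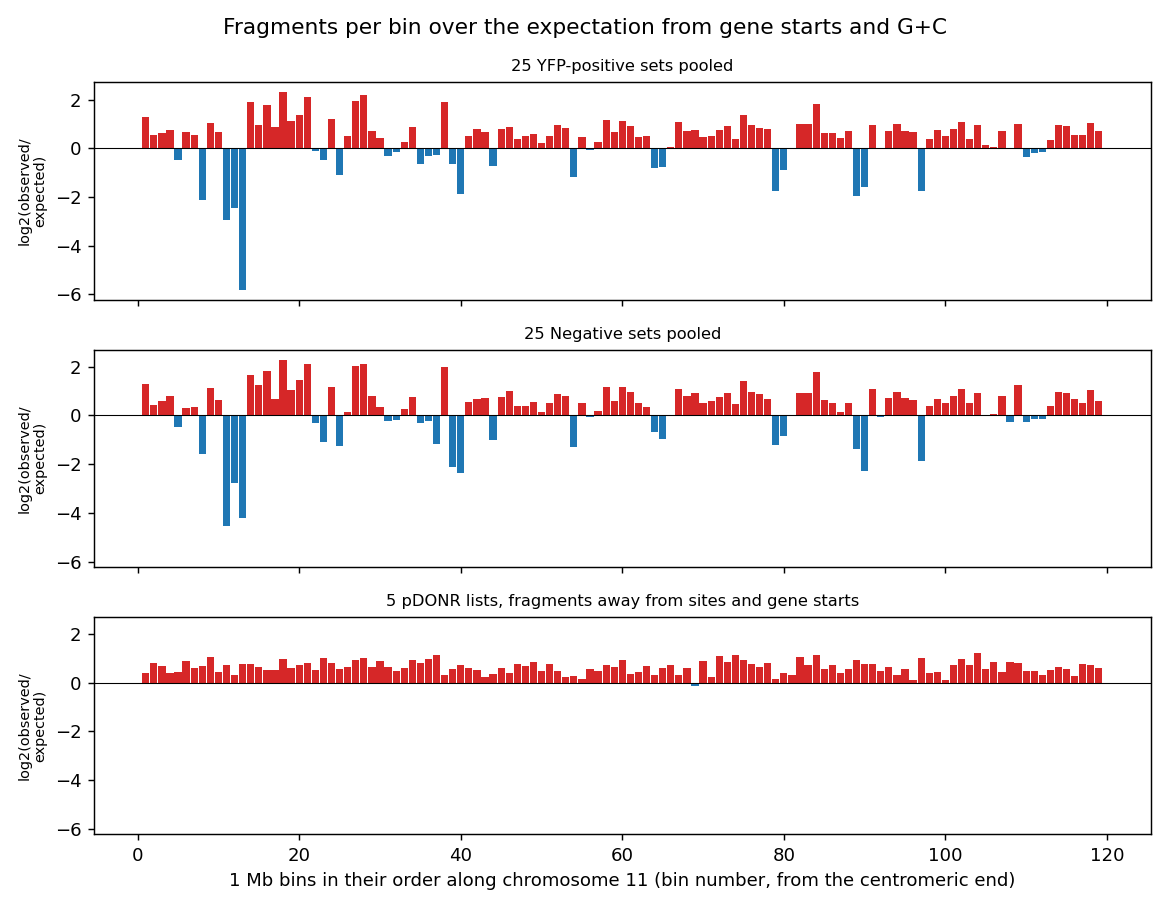
Log2 of observed over expected fragments (starts and G+C) for the 119 bins of 1 Mb in their order along chromosome 11. The positive and Negative sets vary from bin to bin in the same places, and the pDONR fragments away from sites and starts lie above 0 in 118 of 119 bins.

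Fragments of the sorted cells were more uneven along chromosome 11 than its fragments away from sites. In the pooled positive sets 91 of 119 bins lay above the expectation from gene starts (38.8% of bins did on the other autosomes) and 89 with G+C added (38.9%). From starts, 93 bins did so in the Negative sets (39.1% elsewhere) and 105 in all pDONR fragments (40.6%). The middle 50% of bins ran from 1.07 to 2.22 times the expectation from starts, with a median of 1.77. Taken set by set, 12 bins were above it in 25 of 25 positive sets and 57 in 20 or more, while 21 were above in 5 or fewer. The 57 bins formed 17 runs. The longest, of 8 bins at the distal end (chr11:114000001-122000000), held 201 gene starts and 28838 fragments. The next were of 7 bins (chr11:100000001-107000000, 185 starts, 21205 fragments) and 6 bins each (chr11:57000001-63000000 and chr11:75000001-81000000). The 10 leading bins held 36.4% of the excess, and 16 bins were needed for 50% of it. With G+C these were 35.1% and 17 bins. The SD of the log2 ratios over bins was 1.22 from starts and 1.09 with G+C. On each other autosome it was higher, at 1.504 to 3.202 and 1.205 to 2.733. The correlation between neighbouring bins was 0.323 from starts, against a median of 0.368 elsewhere, and 0.232 against 0.198 with G+C. In the pooled positive sets the longest run above the expectation was 11 bins from starts, against up to 14 elsewhere. With G+C it was 13, against up to 9. The cause of these differences was not tested.

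By 10 Mb segments the positive sets had 1.34 to 3.28 times the expectation from starts and G+C, and all 13 were above 1. The segment with the highest ratio was chr11:20000001-30000000, with 10022 fragments against 3054 expected. The pDONR lists had 2.29 there, their highest, and their fragments away from sites 1.71, also their highest. The remaining segments of the positive sets lay between 1.34 and 2.01. This order depended on the expectation. From starts alone the last segment (chr11:120000001-122000000) was highest in the positive sets, with 3.16 against 2.60 at chr11:20000001-30000000, and in pDONR, with 3.04 against 1.87. For the fragments away from sites chr11:110000001-120000000 was then highest, with 2.50, and chr11:20000001-30000000 had 1.43.

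**Figure D5:**
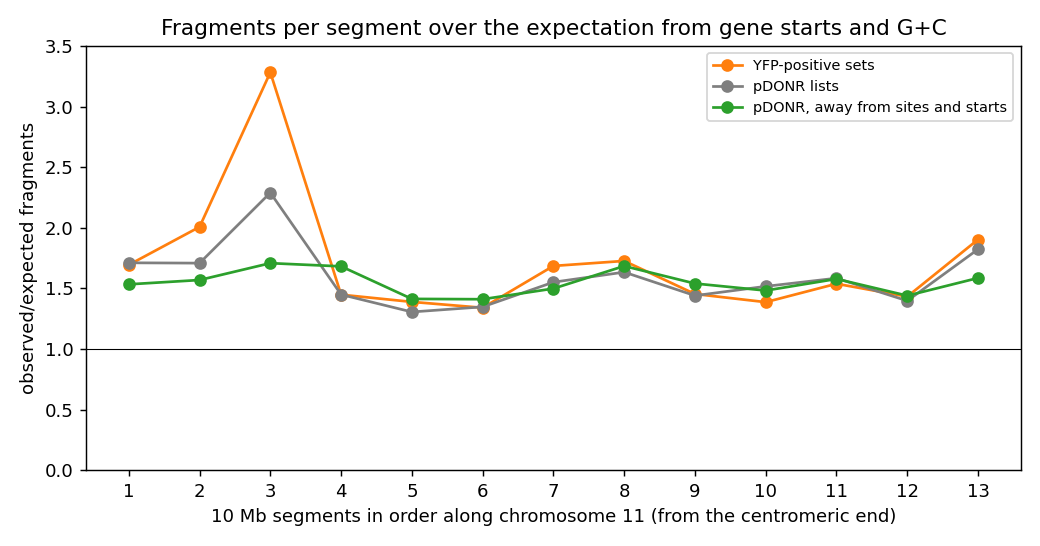
Observed over expected fragments (starts and G+C) in the 13 segments of chromosome 11, for the positive sets, the pDONR lists and the pDONR fragments away from sites and starts. The positive sets reach 3.28 in the third segment, and the fragments away from sites stay between 1.41 and 1.71.

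The pattern of bins was shared between gates. Over the 119 bins, the log2 ratio from starts of the positive sets correlated with that of the Negative sets with r = 0.97, and pDONR with pSKB with r above 0.99. Positive sets and all pDONR fragments gave r = 0.79. Positive sets and pDONR fragments away from sites gave 0.46, or 0.10 with G+C in the expectation. Fragments away from sites leave out the sites by definition, so a lower r is partly built in. These correlations are descriptions over bins, which share gene density and base composition, and the sorted lists come from the same cloned pools.

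No bin passed the test between the YFP-positive and Negative sets. Limma, fitted on the 1900 to 2029 autosomal bins that 4 or more of the 10 sets of a stage touched and adjusted by Benjamini-Hochberg, called 0 bins in each of the 5 stages (0.0%). Of the 107 to 110 bins of chromosome 11 in each fit, 2 to 8 had an unadjusted p under 0.05. In total 23 to 52 bins in a stage had one. Over the bins of chromosome 11 the fitted log2 difference ran from -1.45 to 2.304. Between the positive sets of neighbouring stages limma again called 0 of 2040 to 2103 bins (0.0%), with 2 to 5 bins of chromosome 11 and 32 to 50 bins in all at an unadjusted p under 0.05.

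Between the plasmids, limma without a block called 0 of 2398 bins (0.0%), as did edgeR on reads per bin, and 31 bins had an unadjusted limma p under 0.05. The 2 vectors of a stage carry the same cloned pool, and with stage as a block limma called 905 bins (37.7%), of which 60 of 119 lay on chromosome 11. Of these 60, 29 were higher in pSKB, against 205 of the 905 in all. The median fitted change was 0.00126 on chromosome 11 and -0.0295 over all bins tested. On chromosome 11 the fitted changes ran from -0.13 to 0.10 on the log2 scale with 1 added, which understates the change of bins with few fragments. The largest fitted rise was at chr11:3000001-4000000, from 20.5 ± 0.786 to 21.9 ± 0.926 fragments per 10000 autosomal ones (SD, n = 5), with a log2 change of 0.10 and an adjusted p of 7.27e-05 by limma with the block. At chr11:91000001-92000000, a bin with 1 start, Kif2b, the level fell from 1.34 ± 0.183 to 1.15 ± 0.217 per 10000, with an adjusted p of 0.0019 by the same limma fit. At chr11:92000001-93000000 it fell from 1.06 ± 0.115 to 0.891 ± 0.0799 (adjusted p 0.00368, limma). Both were lower in pSKB in each stage.

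The bins that stood highest in the positive sets were of different kinds. Fragment counts here are sums over the 25 positive sets, so a fragment in several sets is counted each time. At chr11:18000001-19000000, which has no protein-coding start, 207 fragments were counted where 21.1 were expected from starts. The ratio was 9.82, and 18 of 25 positive sets were above. All sorted lists together held 175 distinct fragments in this bin. The Negative sets had 68 fragments and a ratio of 10.7, and all pDONR fragments 2.77. At chr11:36000001-37000000, also without a start, there were 172 fragments, a ratio of 8.16 and 16 of 25 sets above. Every distinct fragment of both bins was distal. They lay in 27 and 24 sites, and the leading site held 20.6% and 30.8% of the distinct fragments. Both ratios rest on a small expectation. With G+C in it, their log2 ratios went from 3.27 to 1.79 and from 3.00 to 0.89.

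The 2 bins without a start still held parts of genes. Meis1, at chr11:18879817-19018985, reaches into the first, and the leading site of the second lies in an intron of Tenm2. The other 3 held protein-coding starts. At chr11:20000001-21000000, with 7 starts including Rab1a and Actr2, a subunit of the Arp2/3 actin complex, there were 3705 fragments against 637 expected, a ratio of 5.82, and 25 of 25 positive sets were above. At chr11:19000001-20000000, with the starts of Spred2 and Meis1, a homeobox factor of blood stem cells, the ratio was 4.24, with 19 of 25 sets above. Its log2 ratio went from 2.08 to 0.85 with G+C. At chr11:60000001-61000000, with 20 starts, 4406 fragments gave a ratio of 4.19, and 25 of 25 sets were above. With G+C its log2 ratio went from 2.07 to 1.16. Just outside the 5 was chr11:69000001-70000000, with 65 starts including Trp53, where 7717 fragments gave 4.17. Its log2 ratio went from 2.06 to 1.07 with G+C. Fragments of pDONR away from sites were at 1.22 to 3.22 times their expectation from starts in these 6 bins, and at 1.23 to 1.93 times with G+C.

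Of the bins with a start that stood lowest, 4 are described. At chr11:14000001-15000000, with Pom121l12, there were 9 fragments against 134 expected, and 0 of 25 positive sets were above. At chr11:91000001-92000000 there were 17, and at chr11:37000001-38000000, with Tenm2, 42. At chr11:99000001-100000000, where 35 of 58 starts are keratin or keratin-associated genes, 623 fragments were counted against 1850, a ratio of 0.337. The pDONR fragments away from sites in these 4 bins were at 0.764 to 1.35 times their expectation from starts, with the lowest at chr11:14000001-15000000, and at 1.26 to 2.02 times with G+C. The neighbouring bin chr11:100000001-101000000, with 15 such genes of 41, had a ratio of 2.00 in the positive sets. The 4 bins rich in olfactory receptor genes had 0.810 to 1.20. At chr11:15000001-16000000, which has no start, 0 fragments were listed in the positive sets where 21.1 were expected. A count of 0 allows up to 3 for independent fragments, which fragments repeated between sets are not.

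The chromosome had 7173 merged sites, 9.60% of all autosomal ones, below its share of fragments. A site was listed in a median of 6 libraries against 5 on the other autosomes, and 5.77% against 3.88% of sites were in 48 or more of the 95. The most widely listed site was in 75 libraries, against 87 on the other autosomes. The mean was 20.2 distinct fragments per site against 15, and the median length 412 bases against 358. The chromosome was picked for its fragment count, so these are descriptions.

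The sites listed most widely all held a gene start. The site of Rhot1, a mitochondrial GTPase, at chr11:80208688-80209747 was in 75 libraries, in 23 of 25 positive and 18 of 25 Negative sets. Bahcc1 at chr11:120232398-120233057 followed with 74. Rab1a (chr11:20200663-20201888), Amz2, which codes for a peptidase (chr11:109425389-109426504), and Map2k3, a kinase that activates p38 (chr11:60931517-60932665), were each in 73. The Map2k3 site also overlaps the antisense gene Map2k3os. By contrast, the leading sites of the 2 bins without starts were in 28 (chr11:18010991-18011487) and 31 libraries (chr11:36045580-36046187), and the Spred2 site (chr11:19923806-19924666) in 48. The set counts of Rhot1 are not scaled for depth, since a positive set joins several lists and a Negative set does not.

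In sequence the sites of chromosome 11 resembled the others. In their central 200 bases, AP-1 matches were in 9.15% against 9.84% of other sites, ETS in 3.32% against 3.37%, GATA in 10.8% against 10.7%, RUNX in 5.45% against 5.12% and the E-box in 15.9% against 15.4%. Their G+C was 54.1% against 53.9%. The E-box in capitals in the first 2 fragments above is therefore a common match, and nothing is drawn from it about any factor.

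Fragments of chromosome 11 differed slightly from the rest of their own list. In pDONR they were longer (median over lists 244.8 against 241.3 bases) and richer in G+C (56.7% against 55.6%) in 5 of 5 lists. They also carried slightly more reads each, 3.83 against 3.76. In pSKB the reads per fragment were 12.7 against 12.8 and higher in 2 of 5 lists. In the sorted libraries chromosome 11 fragments were longer in 25 of 95. In the sorted libraries G+C was lower on chromosome 11, 62.3% against 63.1%, and it was higher in 10 of 95. The distal share was 33.0% against 29.5% and was higher in 82 of 95 libraries. Of the pDONR fragments, 0.661% were found in sorted cells of the same stage against 0.504% for the other autosomes, and of the pSKB fragments 1.63% against 1.32%, higher in 5 of 5 lists each.

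A list of 34 genes with roles in blood, vessels and stem cells was picked on the chromosome. None of them lay between Hba-a1 (chr11:32283511-32284465) and Tcf7 (chr11:52252371-52283014). All 34 loci, taken as 50 kb on either side of a gene, had a fragment, 17 in 20 or more of the 25 positive sets, and none in all 25. Windows around other genes were not counted, so nothing is read from these numbers about the genes picked. Among tumour suppressors and signalling genes, Trp53, which halts damaged cells, had 702 distinct fragments in 24 positive and 18 Negative sets. Stat3, a carrier of cytokine signals, had 504 in 24 and 22, and the adaptor Grb2 547 in 22 and 20. Among nuclear factors, Rara, a retinoic acid receptor, had 780 in 23 and 21, and Meis1 257 in 19 and 17. In the Meis1 window 91.1% of the fragments were distal, against 9.40% in the Trp53 window. A window can hold the starts of other genes, so a fragment in it need not belong to the gene named. For surface proteins, Itga2b, which codes for the CD41 used in the sorts, had 642 in 21 and 15, and Pecam1 of the vessel wall 508 in 20 and 16. The cytokine genes Csf2 and Il3, whose loci overlap, had 46 and 56, the fewest along with Sox9 at 67. The loci of Erbb2 and Ikzf3 and those of Stat3, Stat5a and Stat5b overlap too. A positive set joins several lists and was mostly larger than its Negative set, so the numbers of sets are not scaled for depth. Per 10000 autosomal fragments, the medians of positive and Negative sets were 6.55 and 6.41 at Trp53, 4.14 and 4.05 at Stat3. They were 4.55 and 5.13 at Grb2, 6.26 and 6.41 at Rara, and 1.92 and 1.41 at Meis1. For Itga2b they were 4.62 and 4.66, and for Pecam1 3.81 and 3.64.

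The locus of Mafg, a small Maf factor that pairs with NF-E2, was singled out after its values were seen, since they varied with stage. Its positive sets of replicates 1 to 5 had 8.14, 8.65, 8.37, 13.8 and 4.63 fragments per 10000 in ES, and 1.84, 1.67, 1.91, 1.73 and 5.52 in HB. In HE1 they had 6.77, 6.44, 2.63, 17.6 and 3.81, in HE2 7.60, 8.07, 6.09, 12.4 and 13.1, and in HP 1.89, 1.37, 0, 0 and 2.26. All HE2 values were above all HP values. Several of these sets were small, so their rates rest on few fragments. The positive set of HB replicate 5 held 1813 autosomal fragments and that of HE2 replicate 5 held 1531. Those of HP replicates 3 and 4, with 0 at the locus, held 2254 and 2755. The Negative sets, from the same cloned pools, had means of 9.09 ± 2.84 for ES and 0.671 ± 1.05 for HB (SD, n = 5). The means were 10.6 ± 8.98 for HE1, 13.2 ± 17.04 for HE2 and 0.456 ± 0.653 for HP. The difference between stages at this locus was not tested.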

How the data were processed

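Fragments of 95 sorted libraries, 10 plasmid lists and 3 HM-1 control lists were analysed. The authors trimmed the reads (Trim Galore), mapped them to mm10 (Bowtie2), filtered them (SAMtools, bedtools) and removed duplicates. By their account, they kept sorted fragments that were absent from the controls, present in a plasmid list and inside open chromatin peaks. They split these into distal and promoter fragments. These steps limit sorted fragments to sites, which plasmid lists are not. The deposited plasmid and control lists give counts of reads per fragment, and the deposited sorted lists give other values, coordinates alone. Reporter fragments were PCR products without molecular identifiers, so reads are not independent molecules. Plasmid starts were moved by 1 base, after which 79.7% of the sorted chromosome 11 fragments were identical to a plasmid fragment (4.24% before). On the other autosomes it was 80.6%. The remaining sorted fragments matched no plasmid fragment exactly, which conflicts with the filter described. The reason was not tested.

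The distinct fragments of each list or set were counted by midpoint in 1 Mb bins with at least 50% known bases. Gene starts and sequence came from GRCm38.p6 and GENCODE. Pooled counts add the lists or sets, so a fragment in several is counted each time. The expectation with G+C was a Poisson model on starts, G+C and their squares (statsmodels 0.14.6). It and the fragments away from sites were added after seeing the data. Bins were tested with limma 3.58.1 in R 4.3.3 on log2 of fragments per 10000 plus 1, over all autosomal bins, with Benjamini-Hochberg adjustment, after a check on simulated data. edgeR 4.0.16 on reads was an alternative. Shares were tested with exact two-sided permutation (numpy 2.4.6). The same stage paired pDONR with pSKB (correlation of deviations 0.805 to 0.952 in 5 pairs). Same-numbered replicates passed a correlation of 0.1 in all 5 pairs for HB positive against Negative sets and for ES to HB, not in the other 7 comparisons.

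Named were the 5 highest and 5 lowest bins (the latter with a start), the leading site of each high bin, the 5 most widely listed sites and 34 genes. Of the low bins, 1 is not reported here. Members and lists were chosen with earlier results of these data known.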

Additional observations from a re-analysis of the deposited data

Results flagged for a closer look

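The positive set of HB replicate 5 held 13.6% of its autosomal fragments on chromosome 11, apart from the 12.1% to 12.5% of the other 4 HB positive sets. The gap to the nearest was 0.735 of the range of the group, above the limit of 0.71 for 5 samples. The Negative set of the same replicate held 13.6% as well. In all, 12 groups were looked at, and chance marks about 1 in 20 groups in this way.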

How the results depend on the processing

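Of 112 alternatives for the 10 share comparisons, 103 kept the sign, 9 reversed it and 0 passed an adjusted p of 0.05. With distal fragments the difference was -0.333 points for ES and 0.114 for HB between gates, and -0.231 from HB to HE1. With merged sites it was -0.0544 for ES, -0.709 for HE2 and 0.0892 from HE2 to HP. Leaving out 1 replicate at a time gave -0.0469 to 0.290 for ES (reversed without replicate 4), -0.359 to -0.0526 for HB, -0.455 to 0.163 for HE1 (reversed without replicate 3), -0.106 to 0.412 for HE2 (reversed without replicate 5), and -0.750 to -0.332 for HP. For the steps it gave -0.513 to -0.175 from ES to HB and 0.0953 to 0.535 from HB to HE1. The step between HE1 and HE2 had -0.515 to -0.274, and that between HE2 and HP had -0.499 to -0.191. Sizes moved by over 1.5 times in many alternatives, the most negative being -1.18 for HP between gates and -1.09 from HE1 to HE2 with distal fragments, and -1.10 from HE2 to HP with High and Medium/High gates. The cause was not tested.

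The excess of chromosome 11 stayed above 1 under each alternative. In the positive sets the mean ratio of 1.89 became 2.39 with all gene starts, 2.77 without density, 1.74 without the 5 fullest bins, 1.58 with starts and G+C, 1.69 over merged sites, 2.17 for distal and 1.78 for promoter fragments. In the same terms the 1.81 of pDONR became 2.15, 2.41, 1.71 and 1.54, and with G+C alone 1.69, with 500 kb bins 1.77, with 2 Mb bins 1.73, away from sites 1.73, and there with starts and G+C 1.54. The 1.82 of pSKB became 2.18, 2.45, 1.72 and 1.54, and 1.70, 1.78, 1.73, 1.73 and 1.53.

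With a replicate block no call changed in the 9 comparisons of sorted sets. The smallest p that the paired exact permutation test over 5 pairs allows is 0.0625, reached for HP between gates, for HE1 to HE2 and HE2 to HP, and for pSKB against pDONR with stage as the block. With stage as a replicate block 905 bins passed between the plasmids, against 0 without. From ES to HB, 1 bin passed with 2 Mb bins and 1 without replicate 5, neither on chromosome 11, against 0 otherwise. Sorted sets of replicates 3 to 5 are shallow, which limits what single bins can show.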
